A study of Mus musculus with 6 samples.

Results

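The genes described here form the antioxidant enzyme and NRF2 axis of the mouse macrophage line RAW264.7, whose cells turn into osteoclast-like, bone-resorbing cells when the cytokine RANKL is added. They are 10 genes chosen by symbol: Nfe2l2, Keap1, Hmox1, Nqo1, Gclm, Txnrd1, Gpx1, Sod1, Sod2 and Prdx1. Of these, 9 had a row in the table of 11031 rows used here. Nqo1, which codes for a quinone reductase, had none by symbol or by Ensembl identifier, and a missing row is not a level of 0, so its level was not analysed here. The study set out to describe the transcriptional changes of RANKL-driven osteoclast formation. RNA was taken on day 3 from 3 untreated samples (Ctrl) and 3 samples given RANKL, all of the same cell line with no genetic change named. Poly(A) RNA was made into strand-specific libraries and sequenced as paired ends.

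The levels given below are the authors' mean level of each gene, 1 value a gene. Which libraries enter this mean is not stated, so it may blend Ctrl and RANKL samples. The mean is on a log scale of FPKM, and the header gives neither its base nor an offset. No value was negative, and the lowest was 0.022. Whether an added offset narrows the gaps at low levels was not tested. The scale was read as log2 from the sum of the values, and every level and gap below rests on that reading. FPKM counts fragments in relation to transcript length and to the mapped fragments of the library, so that levels can be set side by side between genes. The length used for each gene is not given, which limits this. For Sod1 the longest coding transcript has 641 bases and all annotated exons joined have 3970. For Sod2 these lengths are 5861 and 10008. How far gaps and orders between genes shift with the length used was not tested. The 12 columns of values per library carry letters that match no sample label and were not used. The effect of RANKL on these genes, the spread between replicates and the depth of each library were for that reason not analysed here. No error or number of libraries can be attached to a mean level, and neighbouring genes in an order of levels are not shown to differ.

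NRF2, the product of Nfe2l2, is a transcription factor that pairs with small Maf proteins on antioxidant response elements and raises genes for glutathione synthesis, thioredoxin recycling, quinone reduction and heme breakdown. In unstressed cells KEAP1 holds NRF2 and, with the CUL3 ubiquitin ligase, hands it to the proteasome. Oxidants modify cysteines of KEAP1 and NRF2 then accumulates, so that NRF2 is set largely at the protein level and mRNA levels do not measure its activity. In osteoclast precursors, reactive oxygen species act as signals downstream of the RANKL receptor, and NRF2 is known to restrain osteoclast formation.

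The label of the cells was read against marker genes. Of 8 macrophage markers, 7 had a row, with mean levels from 4.45 for Adgre1 to 12.4 for Lyz2 and a median of 8.65, and Mertk had no row. All 10 osteoclast markers had a row, with mean levels from 0.45 for Calcr to 6.74 for Ctsk and a median of 5.27. Of these 10, 6 lay above the median of all rows. None of 6 stromal and none of 6 T and B cell markers had a row. The median of all 11031 rows was 3.60, and the top 10% of rows began at 6.02.

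The 9 genes spanned 5.05 log2 units, from Gclm at 3.24 to Gpx1 at 8.29. Their median was 6.61, 8 of the 9 lay above the median of all rows, and 5 lay in the top 10%. Gpx1, Prdx1 and Sod1, which remove peroxides and superoxide, headed the order. Hmox1 and Txnrd1 came next, at 6.78 and 6.61, followed by Nfe2l2 at 5.94. Keap1 and Sod2 lay together at 4.66 and 4.61, and Gclm was the 1 gene under the median of all rows. Gpx1, Prdx1 and Sod1 stood above the regulator pair Nfe2l2 and Keap1 in this mean, whereas Sod2, which also acts on superoxide, did not. The steps from Gpx1 to Prdx1 (0.073), from Prdx1 to Sod1 (0.22), from Hmox1 to Txnrd1 (0.17) and from Keap1 to Sod2 (0.048) were the 4 smallest between neighbours in the order.

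**Figure D1:**
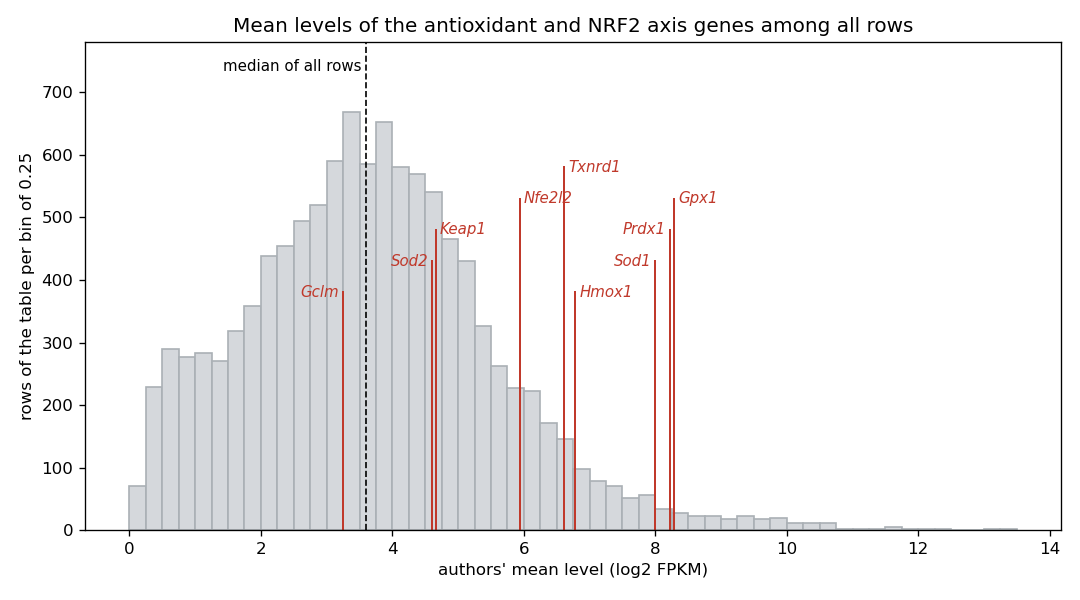
Histogram of the authors' mean level (log2 FPKM, x axis) over all 11031 rows, in bins of 0.25, with the number of rows on the y axis. Red lines mark the 9 genes (their heights only separate the labels) and the dashed line marks the median of all rows, 3.60; Gclm is the only red line to its left, and Gpx1, Prdx1 and Sod1 stand in the right tail, at 8.29, 8.22 and 8.00.

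Among the regulators, Nfe2l2 (ENSMUSG00000015839; chr2:75675513-75704641, minus strand, GRCm38) had a mean level of 5.94, above 89.4% of all rows, and ranked 1174 of 11031. Nfe2l1, which codes for the related factor NRF1, stood 0.25 above it at 6.20, whereas Nfe2, a relative known for its part in megakaryocytes and red cell precursors, was at 0.75. Nfe2l3 had no row. The small Maf partners of NRF2 were at 5.00 for Mafg, 4.50 for Mafk and 2.60 for Maff. Bach1, a heme-sensing repressor that competes with NRF2 for the same elements, was at 3.44, which is 2.50 log2 units under Nfe2l2, and Bach2 had no row.

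Keap1 (ENSMUSG00000003308; chr9:21229730-21239361, minus strand) was at 4.66, above 72.6% of all rows and 1.29 under Nfe2l2. The other parts of its ubiquitin ligase lay close to it, with Cul3, the scaffold, at 4.93 and Rbx1, the RING subunit, at 5.29. Sqstm1 codes for p62, an autophagy receptor that binds KEAP1 and is itself a target of NRF2. Its level of 8.99 put it at rank 129 of all rows and 4.33 log2 units above Keap1. Genes of the KEAP1-independent route of NRF2 breakdown, Gsk3b and Btrc, were at 3.85 and 2.88. Over the 13 of 15 listed regulators and partners with a row, the median was 4.50 and 9 lay above the median of all rows.

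In the glutathione arm, Gclm (ENSMUSG00000028124; chr3:122245557-122270732, plus strand) codes for the modifier subunit of glutamate-cysteine ligase, which makes the first and rate-limiting step of glutathione synthesis. It was at 3.24, above 41.5% of all rows. Gclc, which codes for the catalytic subunit of the same enzyme, was at 4.59 and so 1.35 log2 units above its partner. Gss, for the second step, was at 3.99, and Gsr, which returns oxidised glutathione to its reduced form, at 5.02. The cystine carrier showed the same kind of gap between partners. Its heavy chain gene Slc3a2, shared with other amino acid carriers, was at 7.43 and the cystine-specific chain gene Slc7a11 at 2.72, a difference of 4.71. Over the 10 of 11 listed synthesis and supply genes with a row, the median was 3.73, close to that of all rows, and 5 of 10 lay above it.

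Gpx1 (ENSMUSG00000063856; chr9:108338903-108340343, plus strand) codes for the cytosolic and mitochondrial glutathione peroxidase that reduces hydrogen peroxide. With a level of 8.29 it ranked 198 of 11031 and was the highest of the 9 genes. It stood 1.13 above Gpx4, which reduces lipid peroxides in membranes and guards against ferroptosis, and 3.32 above Cat, the peroxisomal catalase, at 4.97. Gpx3, Gpx7 and Gpx8 had no row. Among the glutathione transferases, Gsto1 was highest at 6.03 and Gstt2 lowest at 1.63, and the median of the 9 of 16 listed peroxidases and transferases with a row was 3.99.

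Txnrd1 (ENSMUSG00000020250; chr10:82833951-82897712, plus strand) codes for the cytosolic thioredoxin reductase, which passes electrons from NADPH to thioredoxin. Its level was 6.61, above 94.0% of all rows. The mitochondrial enzyme gene Txnrd2 was at 3.99 and the thioredoxin-glutathione reductase gene Txnrd3, best known from testis, at 1.67, so that the 3 paralogs were separated by steps of 2.63 and 2.31 log2 units. The substrate of TXNRD1, thioredoxin (Txn1), was at 7.69, and Txnip, whose product binds and inhibits thioredoxin, at 6.28.

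Prdx1 (ENSMUSG00000028691; chr4:116685544-116700822, plus strand), a peroxiredoxin that reduces peroxides with electrons from thioredoxin, was at 8.22 and ranked 206. It was the highest of the 6 peroxiredoxin genes. Prdx2 followed at 7.21, 1.01 lower, and Prdx6, Prdx5, Prdx4 and Prdx3 lay between 6.40 and 6.21. Srxn1, for the sulfiredoxin that repairs overoxidised peroxiredoxins, was at 4.34. The 17 of 18 listed companions of this system with a row had a median of 6.21, with 14 above the median of all rows and 9 in the top 10%.

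The superoxide dismutases turn superoxide into hydrogen peroxide in different compartments, Sod1 in the cytosol and Sod2 in the mitochondrial matrix. Sod1 (ENSMUSG00000022982; chr16:90220754-90226329, plus strand) was at 8.00, above 97.9% of all rows, and Sod2 (ENSMUSG00000006818; chr17:13006846-13040063, plus strand) at 4.61, above 71.7%. The gap between them was 3.39 log2 units. Ccs, for the chaperone that loads copper into SOD1, was at 4.26, which is 3.73 under Sod1. The extracellular enzyme gene Sod3 had no row. Park7, for the redox-sensitive protein DJ-1, was at 7.30.

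Hmox1 (ENSMUSG00000005413; chr8:75093621-75100589, plus strand) codes for the inducible heme oxygenase, which splits heme into biliverdin, iron and carbon monoxide. It was at 6.78, above 94.8% of all rows and 1.05 above Hmox2, the constitutive enzyme gene. Of the genes for the fate of its products, Blvra, which turns biliverdin into bilirubin, was at 6.89. Blvrb, also named as a biliverdin reductase gene, was at 5.13. The ferritin genes Fth1 and Ftl1, which store the released iron, were at 11.4 and 11.6 and ranked 12 and 10 of all rows. Slc40a1, for the iron exporter ferroportin, was at 0.96. All 8 listed heme, iron and bilirubin genes had a row and 7 of them lay above the median of all rows.

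The reductases of both arms draw on NADPH. All 11 listed NADPH supply genes had a row, with a median of 6.39, and 10 lay above the median of all rows and 8 in the top 10%. The pentose phosphate genes Taldo1, Pgd, Tkt and G6pdx were at 7.73, 7.62, 7.06 and 6.18, and the malic enzyme gene Me1 was lowest at 3.12. In the quinone and aldehyde group, to which Nqo1 belongs by function, its paralog Nqo2 was at 3.83 and the aldehyde reductase gene Akr1a1 at 9.05. Over all 86 of 99 companions with a row, the median was 4.67 and 73.3% lay above the median of all rows, beside 8 of 9 of the genes described here. Since the table lists only genes that passed a filter of unknown form, these counts describe the rows and are no measure over all listed genes.

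**Figure D2:**
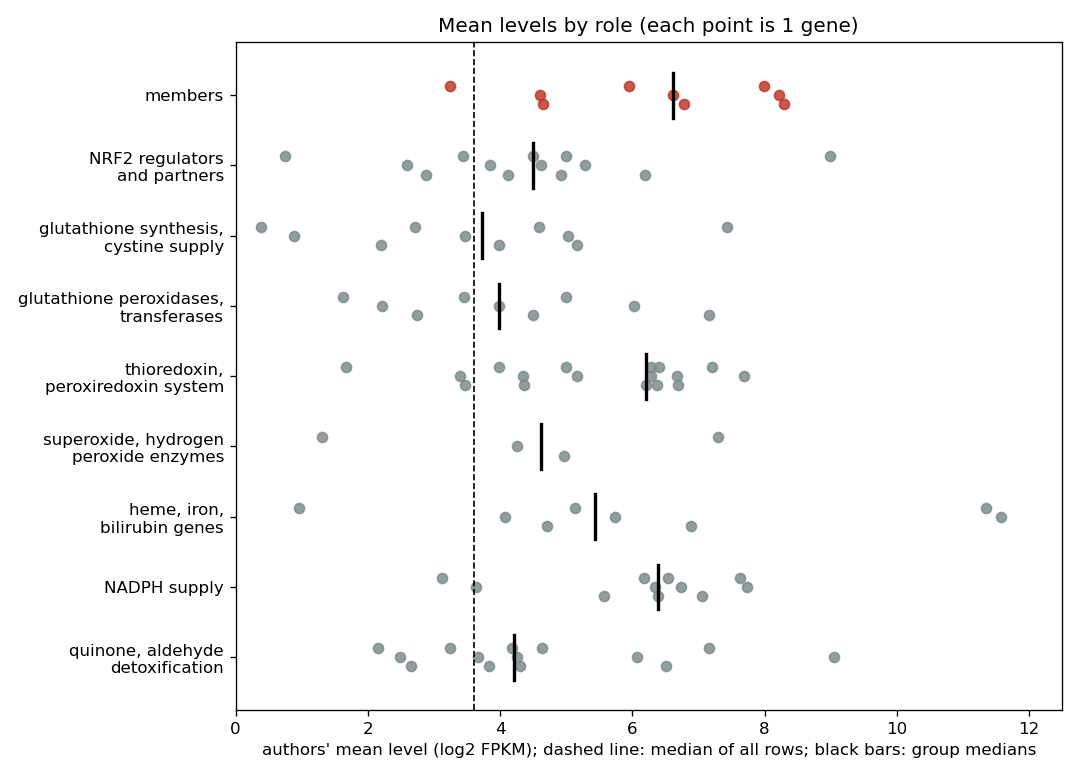
Authors' mean level (log2 FPKM, x axis) of the 9 antioxidant and NRF2 axis genes, labelled members (red), and of 86 companion genes in 8 role groups (grey), 1 point a gene, with vertical offsets only to separate points. Black bars are group medians and the dashed line the median of all rows, 3.60; NADPH supply (6.39) and the thioredoxin and peroxiredoxin system (6.21) have the companion medians nearest to that of the 9 genes (6.61).

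Gpx1 and Txnrd1 share a feature that the choice of genes did not use: both code for selenoproteins, in which a UGA codon inside the reading frame is read as selenocysteine. Of 24 mouse genes with such a codon in the GENCODE M21 annotation, 17 had a row. Gpx1 was the highest of the 17, Selenof, for a protein of the endoplasmic reticulum, followed at 7.28, Gpx4 was the third and Txnrd1 the fourth. Txnrd2 and Txnrd3 ranked 14 and 17. The sequences around the codon are printed to show how the peroxidases and the reductases carry it, with the recoded TGA in capitals and the transcript read 5′ to 3′ as DNA.
Gpx1: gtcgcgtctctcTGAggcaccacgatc
Gpx4: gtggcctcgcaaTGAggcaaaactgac
Txnrd1: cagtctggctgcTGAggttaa
Txnrd2: gtgactggttgcTGAggctaa
Txnrd3: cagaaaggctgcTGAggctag

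Codons were numbered in the longest annotated transcript of each gene that holds the recoded codon, and other transcripts may number it otherwise. In Gpx1 the recoded codon is number 47 of 201, at chr9:108339451-108339453, with 154 codons after it. In Gpx4 it is number 129 of 253. In Txnrd1 it is number 612 of 613, at chr10:82896037-82896039, and 1 codon follows before the stop, which closes the printed sequence. Txnrd2 and Txnrd3 have it in the same next-to-last place, numbers 526 of 527 and 614 of 615. All 3 reductases have a tgc cysteine codon just before the TGA and a glycine codon after it, the redox-active end of these enzymes. The peroxidases also have a glycine codon after the TGA, but no cysteine codon before it, and they carry the TGA far from their end.

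**Figure D3:**
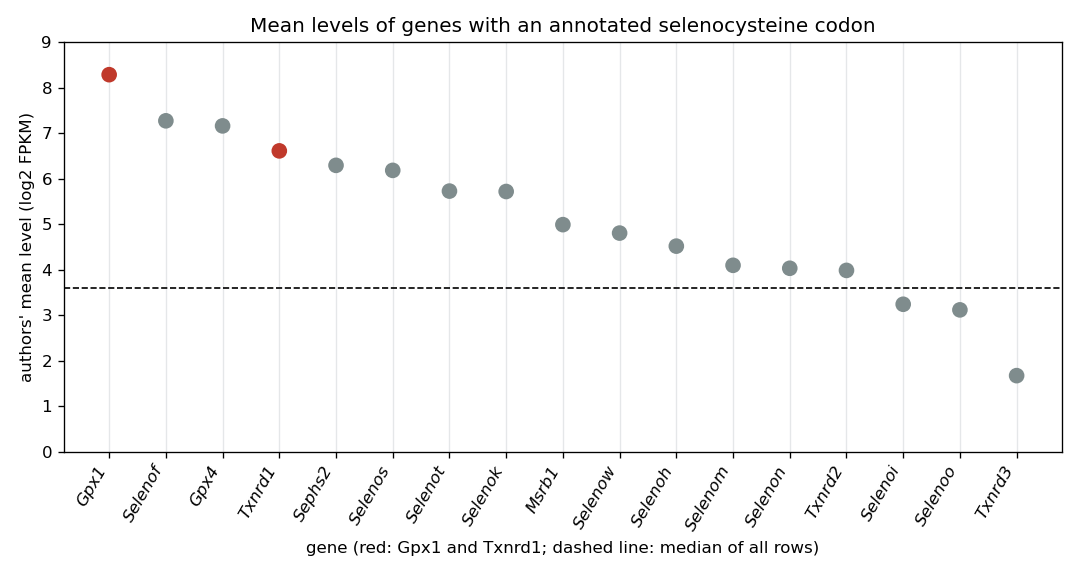
Authors' mean level (log2 FPKM, y axis) of the 17 genes of the table with an annotated selenocysteine codon (x axis), in falling order. Red points are Gpx1 (8.29) and Txnrd1 (6.61), the dashed line is the median of all rows, and Txnrd3 (1.67) is the lowest.

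The annotation in the table placed 8 of the 9 genes, all but Keap1, under the Gene Ontology term for the response to oxidative stress, which covered 987 rows or 8.95% of the table. The genes were chosen for antioxidant defence and the NRF2 axis, so this count is not independent of the choice. Within these 987 rows Gpx1, Prdx1 and Sod1 ranked 14, 16 and 19 by mean level, and Gclm ranked 601. The narrower term antioxidant activity covered 52 rows and held Prdx1, Txnrd1 and Sod2, at ranks 5, 8 and 23. It did not list Gpx1 or Sod1, both textbook antioxidant enzymes, and its 4 highest rows were the calcium-binding protein genes S100a4, S100a6, S100a10 and S100a11. Under hydrogen peroxide catabolic process, with 53 rows, Gpx1 and Prdx1 were the first and the second and Txnrd1 ranked 11.

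Only the KEGG pathways named here were looked up, and none of them held Nfe2l2, Keap1 or Txnrd1. Peroxisome, with 67 rows, had Prdx1 and Sod1 as its 2 highest rows and Sod2 at rank 21. Glutathione metabolism, with 35 rows, had Gpx1 as its highest row and Gclm at rank 24. Ferroptosis, with 36 rows, had Hmox1 at rank 10 and Gclm at rank 29. FoxO signaling, a route the study takes up together with oxidative stress, covered 101 rows (0.916% of the table). It held 1 of the 9, Sod2, at rank 32. None of the 9 was listed under osteoclast differentiation, in either KEGG (112 rows, 1.02%) or Gene Ontology (221 rows, 2.00%). With shares this small, absence from a list of 9 genes is not informative.

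Because NRF2 binds antioxidant response elements, the RefSeq promoter windows of the GRCm38 build, from 250 bases before to 50 after each start site, were searched for the core TGACNNNGC on both strands. A window was given for 9 of the 10 genes, Nqo1 included and Hmox1 not. The core was found in 5 of the 9, namely Nfe2l2 itself, Gclm, Txnrd1, Sod1 and Prdx1, and not in the windows of Keap1, Nqo1, Gpx1 and Sod2. Among all 27025 genes with a window the share was 14.0%, among the 8635 genes of the table with a window 17.1%, and among the companions 15.7% (11 of 70). The 5 of 9 are a share of 55.6%, with a 95% Wilson interval from 26.7% to 81.1%. On the gene's own strand alone the core was in 1 of the 9 (11.1%, interval from 1.99% to 43.5%) and in 7.29% of all genes. The 9 genes were chosen for their place in antioxidant defence and the NRF2 axis, not drawn at random. The intervals therefore test no excess, and a higher share in such a list is not independent of the choice. A match is a run of letters and not a bound site, binding was not measured, and an element outside these windows would not be seen. The 5 windows around the match are printed on the gene's strand with the core in capitals, to show how they differ at the free bases.
Nfe2l2: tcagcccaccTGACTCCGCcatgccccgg
Gclm: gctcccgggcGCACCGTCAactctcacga
Txnrd1: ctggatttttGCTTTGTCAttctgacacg
Prdx1: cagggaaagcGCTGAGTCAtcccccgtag
Sod1: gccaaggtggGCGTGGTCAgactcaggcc

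The printed stretches lie at chr2:75704885-75704913 for Nfe2l2, chr3:122245413-122245441 for Gclm, chr10:82859104-82859132 for Txnrd1, chr4:116685456-116685484 for Prdx1 and chr16:90220696-90220724 for Sod1. Nfe2l2 reads the core on its own strand and the other 4 genes read it on the opposite strand, so that it appears there as GCNNNGTCA. Of the 3 start sites of Txnrd1, the core is in the window of 1. Read in the direction of the element, the free bases differed in all 5 genes, and Prdx1 alone had TGACTCAGC, which also holds the AP-1 element TGACTCA. That longer form was in 0.503% of all genes and in 1 of 70 companions with a window (1.43%), namely Me1. TGACTCA, bound by the FOS and JUN factors that RANKL signaling uses, was present at 2 places in the window of Prdx1, 1 of them inside the core match, and in no other of the 9 genes. The share of all genes with TGACTCA was 5.95%, and that of the companions with a window was 8.57% (6 of 70). The FoxO element GTAAACA was in none of the 9 genes (Wilson interval from 0% to 29.9%). It was in 4.05% of all genes and in 8.57% of the companions with a window (6 of 70). The interval holds both of these shares, so absence from 9 genes is not informative about FoxO. The member windows had a median GC content of 60.7%, against 52.7% over all windows, and ranged from 47% for Gpx1 to 79.7% for Gclm. Companion windows ranged from 36.7% for a window of Fth1 to 74.7% for a window of Me1. Their median was not taken, so a high GC content is not shown to be particular to the member windows.

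**Figure D4:**
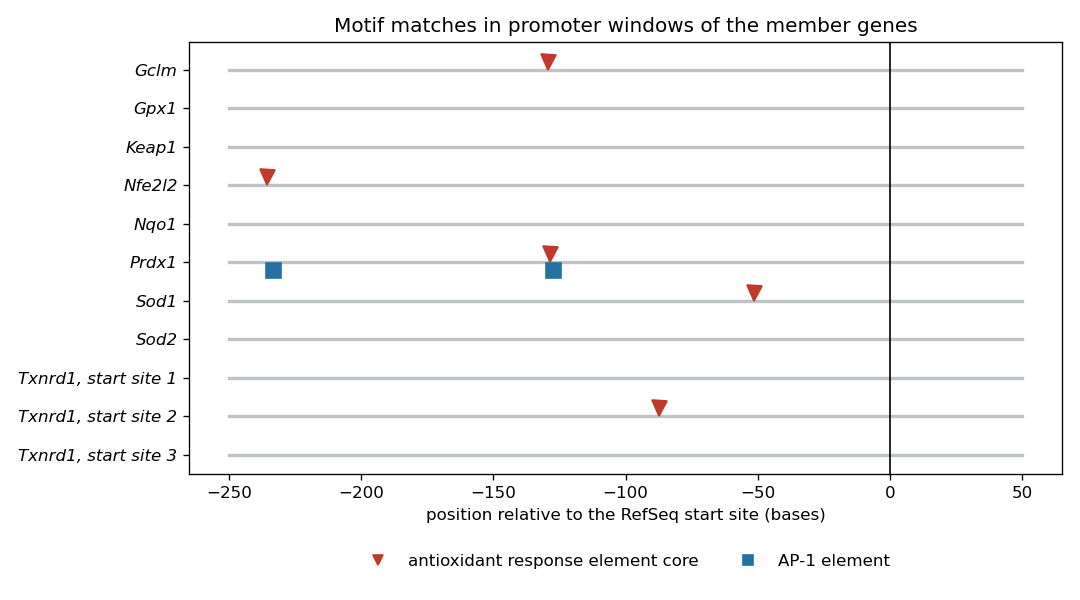
Positions of the antioxidant response element core (red triangles) and the AP-1 element (blue squares) in the 11 RefSeq promoter windows of 9 genes (y axis), in bases from the start site (x axis, start at 0). Grey lines are the windows from 250 bases before to 50 after the start; the core lies within 250 bases before the start in Nfe2l2, Gclm, Prdx1, Sod1 and 1 of 3 Txnrd1 windows, and the AP-1 element at 2 places in Prdx1.

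All 10 genes are annotated as protein-coding in GENCODE M21, and how cleanly their reads can be counted differs. Gpx1, Hmox1, Nfe2l2 and Txnrd1 share no run of 50 bases with any other annotated gene. For Sod1, 23.1% of such runs also occur in the processed pseudogene Gm8566, for Prdx1 10.9% occur in 3 processed pseudogenes, and for Keap1 10.4% lie in the antisense gene Gm16754. Sod1 also overlaps Scaf4 on the opposite strand, and Txnrd1 overlaps Eid3 on its own strand. The libraries kept strand, but whether the counting used it was not given in the sources used here, so the levels of Keap1 and Sod1 carry this uncertainty. Prdx1 overlaps no annotated gene, and how reads shared with the pseudogenes of Prdx1 and Sod1 were assigned was not given either. Among the companions set beside them, 61.7% of the runs of Gpx4, 90.6% of those of Ftl1, 47.7% of those of Hmox2, 32.8% of those of Me1, 29.7% of those of Prdx5, 23.8% of those of Prdx2, 20.4% of those of Sqstm1, 18.9% of those of Nqo2 and 18.4% of those of Txnip occur in other genes.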

How the data were processed

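RNA from 3 Ctrl and 3 RANKL samples of RAW264.7 cells, taken on day 3, was sequenced. Whether replicates came from separate cultures is not stated. The submitters' processing notes name DESeq and mm10, and the study's methods name DESeq2 and the NovaSeq platform. The aligner, counter, annotation release, transcript lengths behind FPKM and row filter are not given in the sources used here. A single table was analysed, with 11031 rows, of which 10947 carry an Ensembl identifier and 84 an assembled locus. The mean level of each gene was computed by the authors from FPKM and deposited on a log scale, read here as log2 FPKM. On base 2 the values sum to 455332 FPKM, and on base e to 6.97e+06, more than a sample's FPKM values usually sum to. The header states neither the base, nor an offset, nor which libraries enter the mean.

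The header letters of 12 columns with values per library fit no label of a sample, and no step read them. A further 4 columns hold the authors' own comparison of conditions (a fold change, its p-value and adjusted p-value, and a direction) and were not used either. The planned comparison of RANKL with control was therefore not carried out, and no statistical test was run. Levels were ranked among all rows with pandas 2.3.3 in Python 3.11.15. Gene models, transcripts and selenocysteine codons came from GENCODE M21 (GRCm38, the assembly of mm10), in which 10915 identifiers were found, and promoter windows from RefSeq. Runs of 50 bases of each longest transcript were looked up in all other transcripts. The motif search and the ranking were tested on simulated data. The member genes and companion lists were chosen with earlier results of these data known. The planned rule named companions by significance. It could not be applied, and the companions named were chosen by role and level after their values were seen.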

Additional observations from a re-analysis of the deposited data

How the results depend on the processing

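The median of the 9 genes' shares of rows below them was 94.0% among all 11031 rows. It was 94.0% among the 10947 rows with an Ensembl identifier and 94.0% among the 10885 protein-coding rows. Both settings keep nearly all rows, so they could hardly move this median. The share of all genes with the antioxidant response element core was 14.0% and moved to 12.4% when counted per start site window, to 7.29% on the gene's strand only and to 0.503% for the longer form TGACTCAGC. The share among the 9 genes with a window was 55.6%, and it was 45.5% per window, 11.1% on the gene's strand only and 11.1% for the longer form. These alternatives were chosen after seeing the data. Other settings for the comparison of RANKL with control (thresholds, adjustments, normalizations, filters and left-out replicates) were not run, since that comparison was not made. No paired analysis was possible because the columns per library carry no sample label. Depth and replicate spread were not analysed here, so no order of levels is shown to exceed its error.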
